A study of Homo sapiens with 49 samples.

Results

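The trefoil factor genes TFF1, TFF2 and TFF3 lie side by side on human chromosome 21, and the peaks described here are those of a window from 100 kb before the first gene body to 100 kb after the last. On hg19 (GRCh37) the window was chr21:43631777-43886644, 255 kb long. It held 65 of the 528044 peaks in 45 ChIP-seq peak lists, and the 3 trefoil genes among 20136 protein-coding genes of the annotation. All 3 genes are on the minus strand. TFF3 (ENSG00000160180) lies at chr21:43731777-43735519, TFF2 (ENSG00000160181) at chr21:43766466-43771106 and TFF1 (ENSG00000160182) at chr21:43782391-43786644. The window also takes in part of ABCG1, a sterol exporter gene, at its lower end, and TMPRSS3, a transmembrane serine protease gene, and UBASH3A, a gene of T cell receptor signalling, at its upper end.

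Trefoil factors are small secreted peptides with a compact disulfide-bonded fold. They are released with mucins by epithelial cells and help to protect and repair mucosal surfaces. TFF1, also called pS2, is a textbook estrogen-induced gene of breast cancer cells, and estrogen receptor binds a palindromic sequence, the estrogen response element (ERE), close to its start. Estrogen receptor itself was not among the targets described here.

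To ask how regulatory regions shape the estrogen response, the study mapped chromatin-bound proteins and histone marks in a breast ductal carcinoma line, T-47D, and an endometrial adenocarcinoma line, Ishikawa. Cells kept in hormone-depleted medium received 17β-estradiol (E2) at 10 nM or the vehicle DMSO, and were fixed after 1 h where a protein was mapped and after 8 h where a histone mark was mapped. In both lines the targets were the promoter mark H3K4me3, the enhancer mark H3K4me1, the Polycomb mark H3K27me3, the histone demethylase LSD1, JUN of the AP-1 family, the nuclear receptor RARA, MYC and its partner MAX, the TFIID subunit TAF1, and SIN3A, a corepressor scaffold whose comparison was of stripped against full medium, without E2. RNA polymerase II (RNAPII) was mapped in T-47D alone, with 2 libraries per treatment. H3K36me3 was mapped in Ishikawa alone, in a sample whose title names no treatment or medium. The 49 samples comprised 4 inputs, 21 Ishikawa lists and 24 T-47D lists. Each group other than RNAPII was 1 library, so differences in those groups have no replicate check and no test.

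Peak lists held from 2 to 46282 peaks, and a gene without a peak is below the threshold of its list, which does not show absence of the protein. H3K4me3 at the starts of line markers was read as a check of the labels. GATA3, a luminal breast factor, had a peak in T-47D and none in Ishikawa, and PAX8 and EMX2, of the female reproductive tract, had peaks in Ishikawa and none in T-47D. SOX17 had none in either line, while TRPS1, FOXA1, KRT19 and HOXB9 had one in both. The T-47D H3K27me3 list under DMSO went against its label, since 85.7% of its 6305 peaks overlapped H3K4me3 peaks and 98.3% overlapped JUN peaks of the same cells. It is called the library labelled H3K27me3 below, and its 3 window peaks all lay on JUN peaks.

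Peaks less than 500 bp apart in any list were joined, which gave 11 sites in the window. The sequences that carry the main results are printed here, so that the peaks can be read beside the bases under them. All are GRCh37. The first is the exonic TMPRSS3 site upstream of TFF1, chr21:43796533-43796733, plus strand, centred on the summit of the JUN peak under E2, where RNAPII peaks were found under E2 alone. Its capitals mark an ERE-like run with 2 mismatches. The second is the intergenic site between TFF3 and TFF2, chr21:43758248-43758448, plus strand, which had peaks in more lists than any other site of the window. The third is the ERE with 1 mismatch, in capitals, that lies 399 bp upstream of the TFF1 start, chr21:43787023-43787063, minus strand, and in no peak.
TMPRSS3 site: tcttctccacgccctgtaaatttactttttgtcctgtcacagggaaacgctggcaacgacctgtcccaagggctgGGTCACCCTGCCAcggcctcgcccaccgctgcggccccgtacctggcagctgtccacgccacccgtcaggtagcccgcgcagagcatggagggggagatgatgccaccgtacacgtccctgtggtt
site between TFF3 and TFF2: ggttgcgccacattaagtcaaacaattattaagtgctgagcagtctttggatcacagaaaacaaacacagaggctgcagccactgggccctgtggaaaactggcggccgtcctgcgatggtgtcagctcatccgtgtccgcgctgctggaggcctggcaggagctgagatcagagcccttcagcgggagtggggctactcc
TFF1 upstream ERE: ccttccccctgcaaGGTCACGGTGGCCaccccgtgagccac

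At the trefoil genes themselves peaks were found in T-47D alone. Anywhere in the window a peak was present in 16 of 45 lists, 7 of 21 from Ishikawa with 19 peaks and 9 of 24 from T-47D with 46 peaks. Over the targets mapped in both lines, without RNAPII and H3K36me3, the lines were closer, with 19 peaks in 7 of 20 Ishikawa lists and 26 peaks in 6 of 20 T-47D lists. Of the 29 lists without a peak in the window, 13 held under 1000 peaks in the whole genome. Within 1 kb of a gene start, TFF3 had a peak in 8 lists, TFF1 in 2 and TFF2 in 0, all of them from T-47D. The numbers of lists at other gene starts, or in other windows of this length, were not counted. These counts therefore cannot be set apart from those of other genes. No Ishikawa list had a peak at any of the 3 gene bodies. The Ishikawa H3K4me3 peaks lay instead at the neighbours, with 5 at ABCG1 and 1 at the TMPRSS3 start under each treatment. Here and below, the ABCG1 and TMPRSS3 starts are starts of annotated transcripts inside those genes, not the outermost gene starts. Of the 11 sites 3 had peaks in both lines, beside 31.3% of the 63261 sites of the genome joined in the same way.

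**Figure D1:**
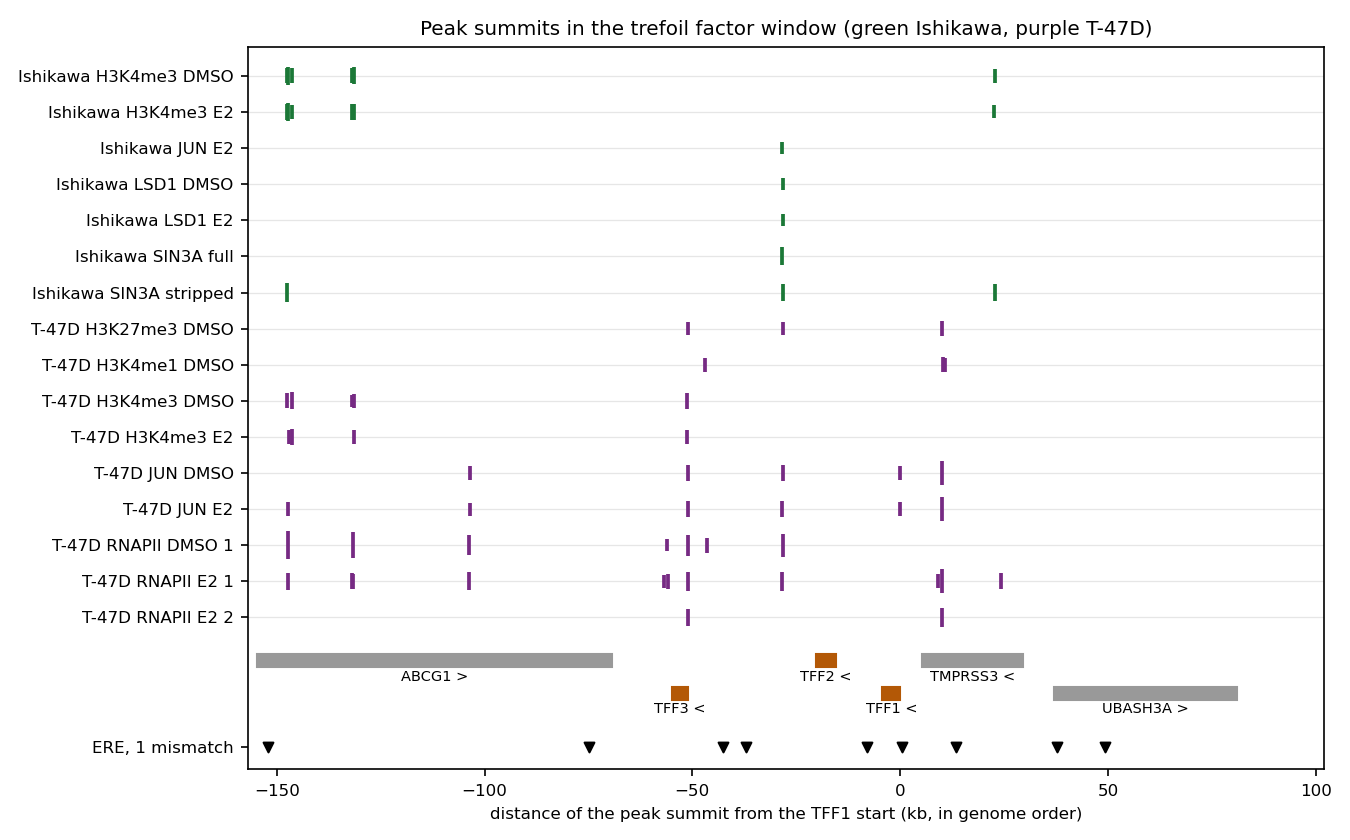
Peak summits of the 16 lists with a peak in the trefoil factor window, each as a tick that is taller at higher fold enrichment, against the distance from the TFF1 start in kb in genome order. Boxes are protein-coding genes with their direction, orange for trefoil genes, and triangles are the 9 EREs with 1 mismatch. Ishikawa ticks (green) miss all 3 trefoil genes, and T-47D ticks (purple) fall at the TFF3 and TFF1 starts as well as in ABCG1, beside TFF3, between TFF3 and TFF2, and in TMPRSS3.

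At the TFF3 start, chr21:43735221-43735992, all 8 lists with a peak were from T-47D. Fold enrichment, the pileup of ChIP tags over the local background with 1 added to each, is given below with the number of tags at the summit and its exact 95% Poisson interval, where tags could be recovered. H3K4me3 had a fold enrichment of 10.8 under DMSO, from 51 tags (interval 38.0 to 67.1), and 7.70 under E2, from 40 tags (28.6 to 54.5). The intervals overlap. The ratio of E2 to DMSO was 0.710, beside a median of 0.842 over the 23678 H3K4me3 regions shared by both lists, 21.6% of which had a lower ratio. Within its list the DMSO peak was of middling height, above 50.7% of the peaks.

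JUN was found at the TFF3 start under both treatments, with a fold enrichment of 12.2 under DMSO (87 tags, interval 69.7 to 107) and 12.7 under E2 (68 tags, 52.8 to 86.2). The library labelled H3K27me3 had a fold enrichment of 6.76 there under DMSO (30 tags) and no peak under E2. RNAPII had a fold enrichment of 21.7 in DMSO replicate 1, none in DMSO replicate 2, 19.3 in E2 replicate 1 and 13.4 in E2 replicate 2. A peak was thus present in 1 of 2 DMSO and 2 of 2 E2 libraries, and where present the highest value was a DMSO one.

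Peaks at the TFF1 start were limited to JUN in T-47D. JUN had a fold enrichment of 9.42 under DMSO, from 26 tags (interval 17.0 to 38.1), and 8.87 under E2, from 23 tags (14.6 to 34.5). These were low peaks of their lists, above 38.5% and 20.6% of all peaks. As fold enrichment the intervals are 6.28 to 13.6 and 5.76 to 13.1, and they overlap. No RNAPII library of the 4 had a peak over TFF1 or over TFF2, and H3K4me3 had none at either gene in either line. TFF2, which has a pair of trefoil domains in its peptide, had no peak of any target within 1 kb of its start.

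The TMPRSS3 site upstream of TFF1, chr21:43795759-43797409, was the site with an RNAPII peak in both E2 libraries and neither DMSO library. It begins 9115 bp upstream of the TFF1 start, overlaps coding exons of TMPRSS3 and had peaks in 6 lists, all from T-47D. The nearest annotated transcript start, 5453 bp away, is one of TMPRSS3 and not of TFF1. RNAPII had a fold enrichment of 29.9 in E2 replicate 1 and 16.3 in E2 replicate 2 (61 tags, interval 46.7 to 78.4), and no peak in either DMSO replicate. E2 replicate 1 also had a smaller peak at the site, with a fold enrichment of 8.00. DMSO replicate 2 had 0 peaks in the whole window, so the contrast at this site rests on DMSO replicate 1.

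JUN was high at the same site under DMSO and under E2, which are separate libraries. Its fold enrichment was 28.0 under DMSO (103 tags, interval 84.1 to 125) and 31.5 under E2 (111 tags, 91.3 to 134), above 97.0% and 91.5% of the peaks of those lists. JUN under DMSO thus had a peak where neither DMSO library of RNAPII had one, as it had at 26.9% of the 934 RNAPII regions of the genome that were found in both E2 and neither DMSO list. H3K4me1 had peaks with fold enrichments of 10.0 (29 tags) and 8.24 (23 tags) under DMSO and none under E2, and the library labelled H3K27me3 had one of 8.69 (25 tags) under DMSO and none under E2. For both marks the E2 lists were shorter throughout the genome, at 1960 against 6408 peaks for H3K4me1 and 107 against 6305 for H3K27me3.

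**Figure D2:**
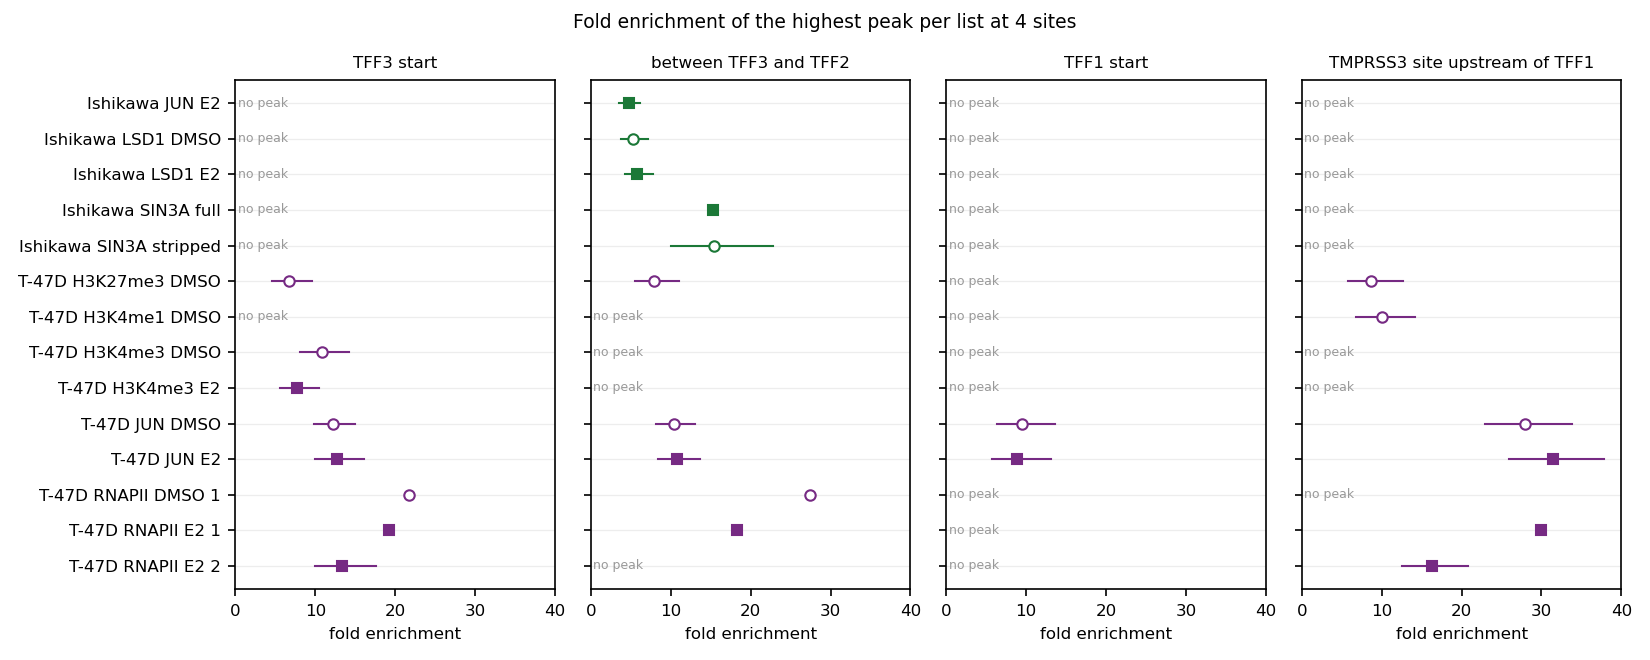
Fold enrichment of the highest peak of each list at the TFF3 start, between TFF3 and TFF2, at the TFF1 start and at the TMPRSS3 site. Open circles are DMSO or stripped medium, filled squares E2 or full medium, green is Ishikawa and purple T-47D, and lines are 95% counting intervals where tags could be recovered. JUN reaches 28.0 and 31.5 at the TMPRSS3 site, and RNAPII has a peak there in the E2 lists only. DMSO replicate 2 of RNAPII had no peak in the window and is not drawn.

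The site between TFF3 and TFF2, chr21:43757986-43758568, was the one shared most widely between the lines. It lies 22467 bp upstream of TFF3 in intergenic DNA and had peaks in 10 lists, 5 from each line, for JUN, LSD1, SIN3A, RNAPII and the library labelled H3K27me3. As many lists or more were found at 23.3% of the sites of the genome. In T-47D, JUN had a fold enrichment of 10.4 under DMSO (74 tags) and 10.8 under E2 (65 tags), and RNAPII had 27.4 in DMSO replicate 1 and 18.3 in E2 replicate 1 with no peak in either second replicate. The library labelled H3K27me3 had 7.88 (32 tags) under DMSO.

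In Ishikawa the same site had LSD1 peaks of 5.27 under DMSO (41 tags) and 5.79 under E2 (44 tags). The counting intervals, as fold enrichment, are 3.82 to 7.10 and 4.24 to 7.72, and each holds the value of the other treatment. JUN had a peak of 4.73 under E2 (52 tags) and none under DMSO. The Ishikawa JUN list under E2 held 18311 peaks against 3768 under DMSO, and 80.9% of all Ishikawa JUN regions were in the E2 list alone and 1.03% in the DMSO list alone. SIN3A had 15.4 in stripped medium (23 tags) and 15.3 in full medium, a ratio of 0.993 where the median over 13305 shared SIN3A regions was 0.551. H3K4me1 and H3K4me3 had no peak at this site in either line.

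The remaining sites of the window lay at the neighbours or beside TFF3. The ABCG1 start had H3K4me3 in both lines, with highest fold enrichments of 14.3 and 15.6 under DMSO and E2 in Ishikawa and 13.6 and 10.3 in T-47D, a SIN3A peak of 16.4 in Ishikawa in stripped medium alone, and a T-47D JUN peak of 8.10 under E2 alone (37 tags). An ABCG1 intron site, chr21:43654591-43655507, had H3K4me3 in both lines as well, at 13.8 and 12.7 in Ishikawa and 9.32 and 8.53 in T-47D. H3K4me3 thus marked ABCG1 in both lines under both treatments, while JUN at the ABCG1 start had a peak in T-47D alone.

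Upstream of TFF3, the site 4216 bp from its start had an H3K4me1 peak of 7.72 (27 tags) and an RNAPII peak of 9.55 in DMSO replicate 1, both under DMSO alone. The site at the TMPRSS3 transcript start had peaks in Ishikawa alone, with H3K4me3 at 7.54 under DMSO (40 tags) and 6.76 under E2 (35 tags) and SIN3A at 12.99 in stripped medium (24 tags). A TMPRSS3 intron site, 410 bp from another TMPRSS3 transcript start, had a single T-47D RNAPII peak of 11.95, in E2 replicate 1. No peak of any list lay in UBASH3A.

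Two-sided exact permutation tests over the 4 RNAPII libraries asked whether E2 changed RNAPII across the window. The smallest p that these 2 libraries per treatment can give is 0.33, so none of them could reach significance. DMSO replicates 1 and 2 had 7 and 0 peaks in the window, and E2 replicates 1 and 2 had 11 and 2. The groups overlap, and in both treatments replicate 1 was the higher, as in the whole lists, which held 39371, 21291, 46282 and 23433 peaks in the same order. Mean peak numbers were 3.5 ± 4.95 (SD, n = 2) under DMSO and 6.5 ± 6.36 (SD, n = 2) under E2. The difference on the log2(value + 1) scale was 1.08 (exact permutation p = 0.667), and it was -0.42 without DMSO replicate 2.

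The window length inside peaks was 3718 and 0 bp for DMSO replicates 1 and 2 and 3865 and 586 bp for E2 replicates 1 and 2. The difference in covered length was 4.63 on the log2(value + 1) scale (exact permutation p = 0.667), a size set by the DMSO library without a peak, and -1.30 without that library. Of the TFF3 gene body, 5.34% and 0% lay inside RNAPII peaks for DMSO and 4.17% and 3.79% for E2. The difference was 1.31 percentage points (exact permutation p = 1) and -1.36 points without DMSO replicate 2. TFF1 and TFF2 were at 0% in all 4 libraries (exact permutation p = 1 for each). None of these differences was larger than the spread between replicates.

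**Figure D3:**
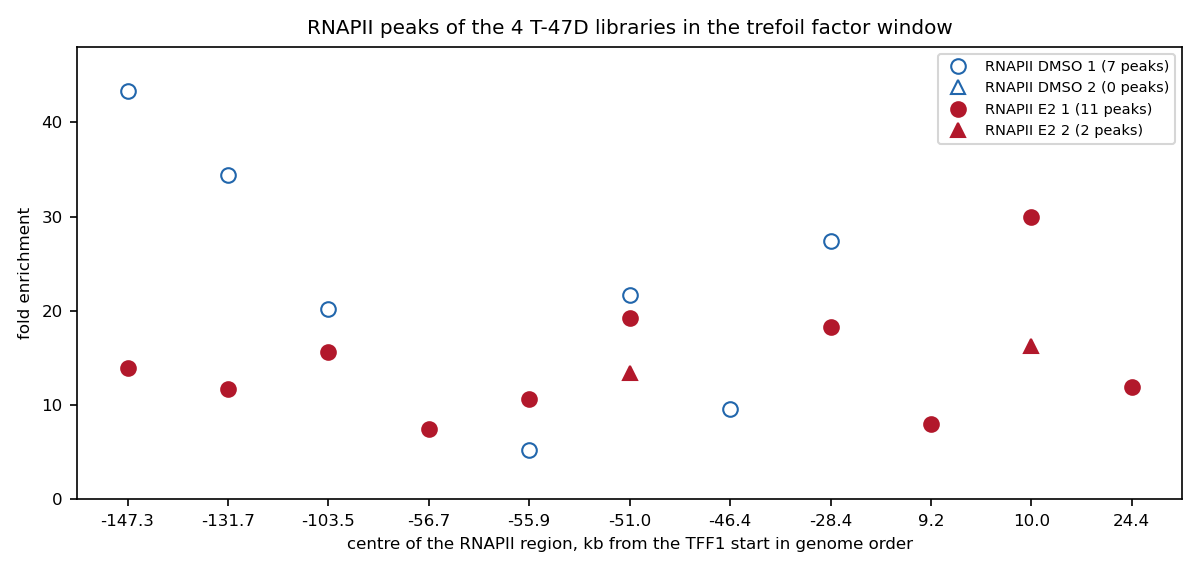
Fold enrichment of RNAPII peaks in the 4 T-47D libraries over the 11 RNAPII regions of the window, placed by the distance of the region's centre from the TFF1 start in kb. Open symbols are DMSO and filled symbols E2, circles replicate 1 and triangles replicate 2. DMSO replicate 2 has no symbol since it had 0 peaks, and only the region in TMPRSS3 has both E2 symbols and no DMSO symbol.

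Counted as regions, 1 of the 11 RNAPII regions of the window was gained, in both E2 lists and neither DMSO list, and 0 were lost, in both DMSO lists and neither E2 list. Since DMSO replicate 2 had no peak in the window, no region there could count as lost, and a gain rested on DMSO replicate 1. Over the genome 1.71% of 54596 regions were gained and 0.211% were lost, so 1 of 11 is a count too small to set apart from that background. The gained region was chr21:43796386-43796916, 9742 bp upstream of TFF1. Taking the lower fold enrichment of the E2 replicates, 16.3, it ranked 30 of the 934 gained regions, above 96.8% of them, whose median was 8.48. It was one of the taller gained regions. The region lies inside TMPRSS3, and the body of TFF1 carried no RNAPII peak.

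**Figure D4:**
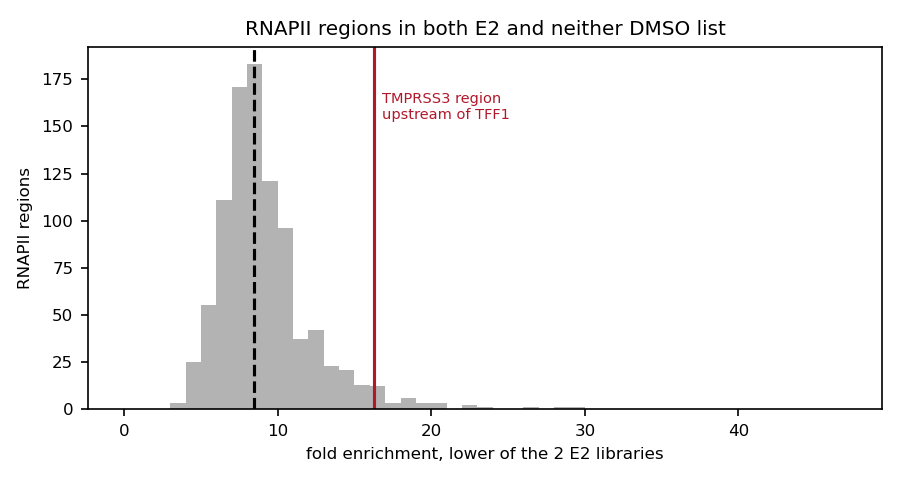
Histogram of fold enrichment, the lower of the E2 replicates, over the 934 RNAPII regions found in both E2 and neither DMSO list of T-47D. The red line is the TMPRSS3 region upstream of TFF1 at 16.3, and the dashed line is the median of 8.48.

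Replicate 1 alone had RNAPII peaks under both treatments at 6 regions of the window, of which 5 are given here. The median ratio of E2 to DMSO replicate 1 over 27121 shared regions was 0.702. At the ABCG1 start the fold enrichment went from 43.4 to 13.9, and in an ABCG1 intron site from 34.4 to 11.7, ratios of 0.320 and 0.341 that only 3.23% and 4.93% of shared regions undercut. At the TFF3 start the ratio was 0.888, and between TFF3 and TFF2 it was 0.668. Past the 3′ end of TFF3, at chr21:43730381-43731092, the fold enrichment went from 5.25 to 10.6, a ratio of 2.02 that was above 97.6% of shared regions. The DMSO peak there was above only 1.01% of its list, and so low a starting value favours a high ratio. These are 1 library per treatment, and neither second replicate had a peak at 5 of the 6 regions, the TFF3 start being the exception with its E2 replicate 2 peak.

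Set against other genes, the trefoil genes did not stand out for the number of RNAPII peaks around them. With 100 kb on each side, TFF1 and TFF2 each had 5, 0, 8 and 2 peaks in DMSO replicates 1 and 2 and E2 replicates 1 and 2, and TFF3 had 7, 0, 11 and 2. The medians over all protein-coding genes were 5, 3, 6 and 3. A count of 0 was found for 18.7% of genes in DMSO replicate 2. A gained region lay within 100 kb of 6.71% of genes and a lost one near 2.37%. A peak over the gene body was found for 68.3%, 50.6%, 64.9% and 55.8% of genes in these libraries, and over TFF1 and TFF2 in none of them.

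The other comparisons rest on 1 library per group and are counts of regions in one list or both. In T-47D, JUN had 5 window regions in both lists, 0 in the DMSO list alone and 1, at the ABCG1 start, in the E2 list alone, where 25% of all JUN regions were in the DMSO list alone and 17.7% in the E2 list alone. The E2 to DMSO ratios of fold enrichment at the 5 shared JUN regions ran from 0.941 at the TFF1 start to 1.13 at the TMPRSS3 site, all below the median of 1.35 over 18608 shared regions. H3K4me3 in T-47D had 3 regions in both lists, 2 in the DMSO list alone and 0 in the E2 list alone, against 17.9% of all its regions in the DMSO list alone and 8.54% in the E2 list alone. In T-47D, H3K4me1 and the library labelled H3K27me3 each had 3 regions in the DMSO list alone, in comparisons where 72.3% and 98.3% of all regions were in the DMSO list alone, and 8.61% and 1.59% in the E2 list alone. Those shares are the background of the whole lists, and the counts in the window are too small to set apart from it.

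In Ishikawa, H3K4me3 had 5 regions in both lists, 1 in the DMSO list alone and 1 in the E2 list alone, and the latter pair lay next to each other at the TMPRSS3 start. Of all H3K4me3 regions, 6.19% were in the DMSO list alone and 11.4% in the E2 list alone. SIN3A had 1 region in both media and 2 in stripped medium alone, at the ABCG1 and TMPRSS3 starts, beside 33.3% of all SIN3A regions in stripped medium alone and 5.85% in full medium alone. LSD1 had its 1 region in both lists, where 9.96% of all regions were in the DMSO list alone and 58.4% in the E2 list alone. H3K27me3, H3K4me1, MAX, MYC, RARA and TAF1 in Ishikawa, and LSD1, MAX, MYC, RARA, TAF1 and SIN3A in T-47D, had no peak in the window under any treatment, although the Ishikawa TAF1 and H3K4me1 lists held up to 19349 and 28411 peaks.

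Sequence elements were searched on both strands, up to 150 bases on each side of each summit. The ERE, GGTCA and TGACC with 3 free bases between them, had no exact match in the whole window. With 1 mismatch in its 10 fixed letters there were 9 matches, and 0 of the 9 lay in a peak, the match 399 bp upstream of TFF1 included. Peaks cover only a small part of the window, so 0 of 9 does not show that peaks avoid the element. Over the whole lists, 1.72% and 1.35% of T-47D JUN peaks under DMSO and E2 held an ERE with at most 1 mismatch. The AP-1 element, TGANTCA, was held by 7.003% and 4.95% of all T-47D JUN peaks under DMSO and E2 and by 20.2% of the Ishikawa JUN peaks under E2. T-47D H3K4me3 peaks under DMSO and E2 held it at 5.02% and 4.94%. RNAPII peaks held it at 6.59% in DMSO replicate 1, 8.34% in E2 replicate 1 and 7.85% in E2 replicate 2. Both T-47D JUN shares lay within the range of these H3K4me3 and RNAPII shares. How far the T-47D JUN peaks reflect JUN itself was not tested. The H3K4me1 peak upstream of TFF3 and the Ishikawa H3K4me3 peak at the TMPRSS3 start under DMSO held an AP-1 element, as did 9.43% and 5.82% of all peaks of those lists. The E-box, CACGTG, was found at the site 4216 bp upstream of TFF3 and at no other, near its H3K4me1 and RNAPII summits, in lists where 8.60% and 8.46% of peaks held one.

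The start sites of TFF3 and TFF1, the site between TFF3 and TFF2 and the TMPRSS3 site held no AP-1 element, no E-box and no ERE with up to 1 mismatch in these bases. When 2 mismatches were allowed, a choice made after the data had been seen, the TMPRSS3 site held the capitalised run in its printed sequence. The run lay 11 and 19 bp from the JUN summits under DMSO and E2, and 3 and 37 bp from the RNAPII summits of E2 replicates 1 and 2. Such a run is common, since 14.8% and 14.1% of JUN peaks and 15.3% and 12.99% of RNAPII peaks in the same 4 lists held one. A run of the same kind lay at the TFF1 start, 31 and 7 bp from the JUN summits. Others lay 22 bp from the H3K4me1 summit upstream of TFF3 and 11 bp from the RNAPII summit of the TMPRSS3 intron site. Another lay 26 bp from the smaller RNAPII summit of the TMPRSS3 site.

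The last genes described are a list chosen for its known ties to trefoil factors. Of 13 genes of mucins, mucin folding and proposed trefoil partners or receptors, 6 had an RNAPII peak over the gene body in DMSO replicate 1, 4 in DMSO replicate 2, 7 in E2 replicate 1 and 4 in E2 replicate 2. These shares, 46.2%, 30.8%, 53.8% and 30.8%, lay below the 68.3%, 50.6%, 64.9% and 55.8% of all protein-coding genes, with no test made. A gained region within 100 kb was found for 2 of 13, beside 6.71% of all genes, and a lost one for 0, beside 2.37%, counts too small to set apart from that background. The genes with a gained region were MUC1, a transmembrane mucin, with 2, 4, 4 and 4 body peaks in the same order of libraries, and MUC5B, a gel-forming mucin, with 0 in all 4. The counts of the list rose and fell with the replicates as much as with the treatment.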

How the data were processed

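Per the labels and the methods of the study, ChIP-seq libraries were sequenced from Ishikawa and T-47D cells, and the authors aligned reads to hg19 with Bowtie 1.1.2 and called peaks per library with MACS2 2.1.0.20140616 (versions from the submitters' processing notes). The deposited values of a peak were its summit's fold enrichment (a ratio of pileup to local background), its −log10 p-value, the same for q (−log10 q-value), and a score of 10 times the former. No peak was listed under a −log10 p-value of 10.0 or a −log10 q-value of 4.66. The lists state no depth. A peak enters a list only above a threshold that depends on the depth and background of its library.

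Groups followed the sample labels. Genes were placed with GENCODE release 44 lifted to GRCh37, and all chromosome 21 peaks ended within that assembly's chromosome. Window peaks were counted per list, and a gained RNAPII region overlapped peaks of both E2 libraries and neither DMSO library (overlap of at least 1 bp), a lost one the reverse. Exact two-sided permutation tests used the 4 RNAPII libraries, on log2(value + 1) for numbers and lengths. Nothing says that the RNAPII libraries came from separate cultures, so the spread between them may be technical. Shared regions were compared by the highest fold enrichment in each list. Tags at a summit were solved from the deposited fold enrichment and −log10 p-value together, within 0.0001, for 46 of 65 window peaks in 13 of 16 lists. Both RNAPII replicate 1 lists and SIN3A in full medium gave no whole tags. Exact 95% Poisson intervals cover counting error only. The gained-region and tag scripts were tested on simulated data.

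Named peaks were all those at a trefoil gene body or within 1 kb of its start, up to 6 gained and 3 lost RNAPII regions, up to 3 of the highest peaks of any other list, and sites with 3 or more targets in a line. The shared RNAPII regions of replicate 1, the joining of peaks less than 500 bp apart and the ERE with 2 mismatches were chosen after the values were seen. A site of the window that this rule names is not reported here beyond the counts. The members, lists and tests were chosen with earlier results of these data known. Alternatives were fold enrichment or −log10 q-value of at least 10, 50 kb on each side, reciprocal overlap of 50%, joined peaks, covered length, lists of equal length, division by the list total, a replicate block and leaving out each replicate. Python 3.11.15 with pandas 2.3.3, numpy 2.4.6, scipy 1.17.1 and pysam 0.24.0 was used.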

Additional observations from a re-analysis of the deposited data

How the results depend on the processing

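Of 81 alternatives over 13 results, 75 kept the direction or, for shares and counts, stayed within the exact 95% interval or 1.5 times of the reported value, 3 reversed and 3 moved. Some of the 75 could not have changed. RNAPII covered no part of TFF1 or TFF2 in any library, and a replicate block leaves a difference as it is. The T-47D lists for H3K4me1 and H3K27me3 under E2 had no window peak to lose. Those intervals count peaks of single libraries rather than replicates, and they are wide. With fold enrichment of at least 10, the share of the window's H3K4me3 peaks found under E2 went from 44.4% to 25% in T-47D and from 50% to 66.7% in Ishikawa. The 3 reversals all came from leaving out DMSO replicate 2, the RNAPII library with no peak in the window. Without it the difference was -0.42 for RNAPII peak numbers, -1.30 for covered length and -1.36 percentage points for the TFF3 gene body. Leaving out each RNAPII library in turn gave differences from -0.42 to 2.58 for peak numbers, from -1.30 to 10.6 for covered length and from -1.36 to 3.98 points for TFF3. Gained regions ranged from 1 to 4, with 2 without DMSO replicate 1 and 4 without E2 replicate 2, and lost regions from 0 to 1, with 1 without DMSO replicate 2. The lone library of an arm then had no spread of its own, and these are values with no test. A gained region was still found in TMPRSS3 with a reciprocal overlap of 50% and with fold enrichment of at least 10, at a count of 1 in each.

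With replicate numbers taken as a replicate block, the differences were the same, 1.08, 4.63 and 1.31, with exact sign-flip p of 0.5, 0.5 and 1, and 0 for TFF1 and TFF2. The differences of same-numbered libraries from their group means correlated over 2544 bins (r = 0.64), but there were only 2 pairs and the labels give no shared batch, so the numbers were not taken to pair the samples. With 2 libraries per treatment no p under 0.33 was possible. Depth per library was not known, so a missing peak limits no more than its own list.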
